A study of Mus musculus with 38 samples.

Results

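The histone deacetylases Hdac1 to Hdac10 were followed in tumor cells of the MMTV-PyMT breast cancer model. Members were taken as every non-control probe whose gene name on the array was 1 of the 10 symbols, which gave 15 probes for 9 genes. Hdac7 was found only under its older name, Hdac7a, and its 2 probes were added through their transcript accession, which made 17 probes of 41174 for 10 genes of 28781. Each probe had 1 spot per array, and no filter on low values was applied, so all 17 probes entered every test.

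In this model the polyoma middle T oncogene is driven by the mouse mammary tumor virus promoter. Hyperplasias from MMTV-PyMT;actin-GFP mice, in which an actin promoter drives GFP, were grafted into cleared fat pads of FVB/n females, so GFP marks cells of graft origin and not epithelium as such. GFP-positive cells were sorted and hybridized in Cy5 against a Cy3 pooled mouse reference RNA on 38 arrays in 2 experiments, which are described separately here because their RNA was amplified differently. The progression experiment held untreated outgrowths and lung lesions: 5 arrays of adenoma (5-week outgrowths), 6 of carcinoma (18-week outgrowths), 6 of disseminated cells (from lungs of mice with 18-week outgrowths, several mice pooled) and 5 of metastases (from lungs after removal of the primary tumor). The chemotherapy experiment held 6 arrays of untreated tumors, 6 of residual tumors 10 days after 1 dose of TAC (doxorubicin, docetaxel and cyclophosphamide) and 4 of relapsed tumors 10 days after 4 doses. The labels do not tie samples to animals, so the p-values measure the spread between these samples only.

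Histone deacetylases remove acetyl groups from lysines, which tightens chromatin when the substrate is a histone tail. Class I enzymes (Hdac1, Hdac2, Hdac3 and Hdac8) are nuclear and mostly work inside the Sin3, NuRD, CoREST and NCoR corepressor complexes. Class IIa enzymes (Hdac4, Hdac5, Hdac7 and Hdac9) shuttle out of the nucleus when kinases create binding sites for 14-3-3 proteins, and repress Mef2 factors. The class IIb enzymes act largely in the cytoplasm, Hdac6 on tubulin and Hdac10 on polyamines.

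All values below are log2 ratios of sample to reference, so a level is relative to the reference RNA and is not compared between probes. Changes were tested with limma's moderated test, with p adjusted (Benjamini-Hochberg) over all 41174 probes, and "rose" and "fell" are used only at an adjusted p below 0.05. Of the 17 probes, 11 were well above background in the sample channel on all progression arrays. For each gene the probe with the highest mean signal is described first and called its brightest probe.

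Some arrays and groups need to be known before the values. Carcinoma replicate 6, disseminated replicates 4 and 6 and metastases replicate 4 correlated with their own group at a median r of 0.768, 0.773, 0.685 and 0.782, below 0.8, and no chemotherapy array did so. Carcinoma and metastases shared slides and a scan day, and adenoma and disseminated cells shared other slides and another scan day. Within slides it was therefore possible to compare metastases with carcinoma and, on the other slides, disseminated cells with adenoma. In the other comparisons group and slide cannot be told apart. Arrays also differed in their median sample signal over background. It ran from 68.7 to 237 in adenoma, 227 to 361 in carcinoma, 85.8 to 478 in disseminated cells and 419 to 522 in metastases. Adenoma and metastases did not overlap in this signal, and its part in the results below was not tested. The sorted cells expressed mammary epithelial markers in all groups, but disseminated cells and metastases also held markers of macrophages. The mean log2 ratio of 17 macrophage genes was 0.33 ± 0.18 (SD, n = 5) in adenoma, 0.96 ± 1.58 (n = 6) in carcinoma, 4.48 ± 0.62 (n = 6) in disseminated cells and 3.45 ± 1.72 (n = 5) in metastases.

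**Figure D1:**
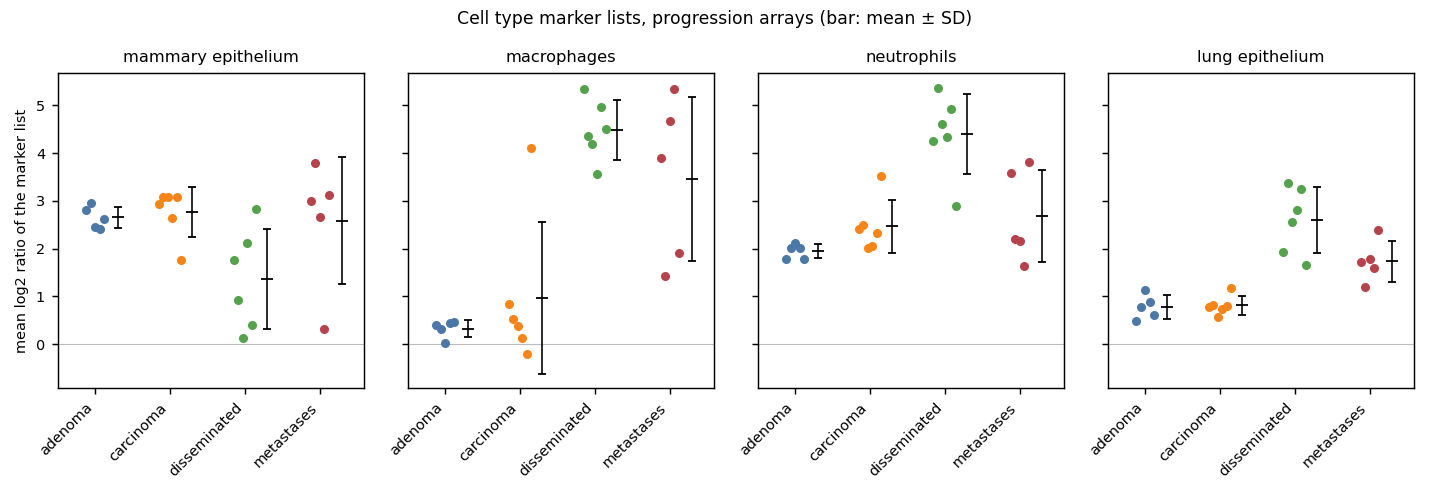
Mean log2 ratio to the reference of the genes of 4 marker lists, for each progression array (points) with the group mean and SD (bars). Macrophage markers lay between 3.56 and 5.35 in the 6 disseminated arrays and between 1.43 and 5.35 in the 5 metastases, and 1 carcinoma array (replicate 6) reached 4.11 where the 5 adenoma arrays lay between 0.02 and 0.45.

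Of these 17 macrophage genes, 15 rose in disseminated cells and 13 in metastases against adenoma, and 0 in carcinoma. Itgam and Siglecf were never well above background in adenoma. Mammary epithelial markers (15 genes) averaged 2.65 in adenoma, 2.76 in carcinoma, 1.36 (array range 0.13 to 2.82) in disseminated cells and 2.58 (0.32 to 3.79) in metastases. Neutrophil markers (9 genes) averaged 1.95, 2.47, 4.40 and 2.68 in the same order, and lung epithelial markers (11 genes) 0.77, 0.82, 2.59 and 1.74. The part of these other cells in the results below was not tested, and in bulk RNA fewer cells of a type and less RNA per cell cannot be told apart.

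The comparison that moved the most deacetylases was metastases against adenoma. By brightest probe the class IIb genes Hdac10 and Hdac6 fell the most, by 1.77 and 1.48 on the log2 scale, followed by Hdac4 (1.12) and the class I gene Hdac3 (0.85). The second Hdac10 probe changed by -0.83. Against adenoma 10 of 17 probes passed the test, 58.8%, where 27.5% of all probes did. Of these, 8 fell against 14.4% of all probes, 2 rose against 13.1%, and 3 changed at least 2-fold against 13.9%. In 8 of 17 probes the metastases and adenoma arrays did not overlap, as in 20.6% of all probes. The median change of the 10 brightest probes was -0.51 where that of all probes was 0.02.

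Fewer probes passed in the other progression comparisons. In carcinoma against adenoma 3 of 17 passed (11.5% of all probes), 2 up (6.28%) and 1 down (5.25%), and 3 did not overlap (10.2%). In disseminated cells against adenoma 6 passed (18.2%), 0 up (7.58%) and 6 down (10.7%), and 1 did not overlap (8.29%). In metastases against carcinoma 6 passed (21.1%), 1 up (8.97%) and 5 down (12.1%), and 1 did not overlap (13.4%). As shares of the 17 probes these counts were 17.6%, 35.3% and 35.3%.

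Disseminated cells differed from carcinoma in 4 probes (24.7%), 1 up (9.49%) and 3 down (15.3%), and metastases differed from disseminated cells in 2 (12.9%), 1 up (6.94%) and 1 down (5.94%). In these last 2 comparisons 0 member probes were without overlap, against 7.11% and 4.33% of all probes. Their shares called, 23.5% and 11.8%, were near those of all probes. The comparisons share groups and several genes have more than 1 probe, so these counts are not independent. An alternative added once the values were known left out the 4 arrays that stand apart. The counts were then 10 for metastases (29.2% of all probes) and 9 for disseminated cells (27.5%) against adenoma, 6 for metastases against carcinoma (26.9%) and 7 for disseminated cells against carcinoma (32.5%), so the share of all probes was higher as well.

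**Figure D2:**
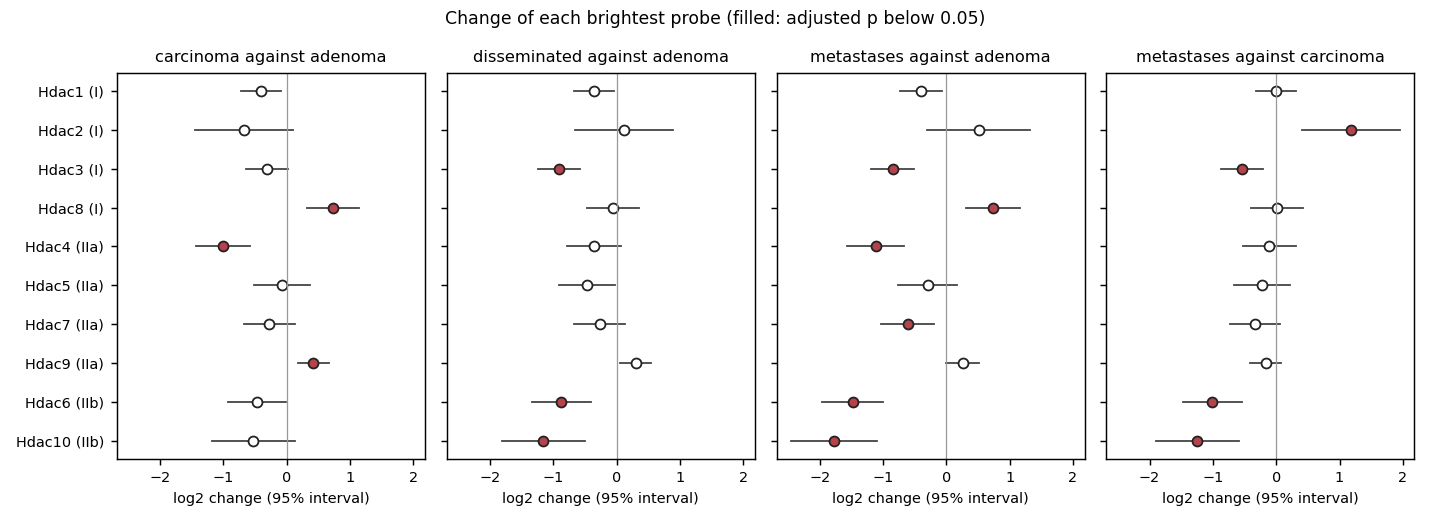
Log2 change of the brightest probe of each gene (points, filled where the adjusted p lay below 0.05) with its 95% confidence interval (lines) in 4 progression comparisons, ordered by class. The class IIb pair is lowest in both metastases panels, at -1.48 and -1.77 against adenoma and at -1.01 and -1.25 against carcinoma, and Hdac2 at 1.19 is the highest point of the last panel.

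Hdac1, a catalytic subunit of Sin3, NuRD and CoREST (probe chr4:128960910-128960981, minus strand, mm7), read 0.64, 0.66, 1.15, 0.90 and 0.80 in the 5 adenoma arrays and 0.34, 0.20, 0.19, 0.38 and 1.01 in the 5 metastases. Carcinoma ran from 0.25 through a median of 0.31 to 0.81, and disseminated cells from 0.20 through 0.44 to 0.80. Adenoma was the highest group, but 1 metastases array lay among the adenoma values. No comparison passed the test, the nearest being metastases against adenoma at -0.41 ± 0.16 (SE, adjusted p = 0.0617, limma). Over 26 alternatives this change ran from -0.55 to -0.15, and it passed in 1 of them (adjusted p = 0.00647, limma). Neighbours in the order adenoma, disseminated, carcinoma, metastases had adjusted p of 0.112, 0.839 and 0.991 by limma.

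Hdac2, the close paralog of Hdac1 in the same complexes, was dim: its brightest probe (chr10:36774774-36774908, plus strand, mm7) was well above background on 1 of 5 adenoma, 3 of 6 carcinoma, 3 of 6 disseminated and 5 of 5 metastases arrays. Carcinoma ran from -2.11 through a median of -1.79 to -1.36. The metastases read -0.46, -0.33, 0.01, -0.93 and -1.26. All 5 metastases lay above all 6 carcinoma arrays, a change of 1.19 ± 0.37 (SE, 2.27-fold, adjusted p = 0.0284 by limma).

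Adenoma stood between them at -1.43, -0.99, -0.59, -1.32 and -1.21, and disseminated cells spread from -1.79 through -1.33 to 0.96, the last in replicate 6. The call for Hdac2 in metastases was not firm. It was lost on leaving out carcinoma replicate 2, 3 or 4 or metastases replicate 1, 2 or 3, with adjusted p of 0.0516 to 0.085 by limma, and with the scanner's processed signals, where the change was 2.56 (adjusted p = 0.0535). The change was 1.46, 1.09 and 1.13 within the 3 slides, and 1.35 (adjusted p = 0.00127) without the arrays that stand apart. The other Hdac2 probe was at no time well above background in a progression sample and gives no level.

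Of the 4 genes whose brightest probe changed 2-fold, Hdac2 was higher in metastases than in carcinoma, and Hdac4 and Hdac6 were lower in metastases than in adenoma. These baselines differ. Hdac2 did not pass the test in metastases against adenoma (0.51, adjusted p = 0.357, limma), nor did Hdac4 against carcinoma (-0.11, adjusted p = 0.791). The promoter windows of these 3 genes are shown as a description, and a link to the direction of change was not tested. Each is the 250 bases before the gene start from RefSeq (GRCm38.p6), 5′ to 3′ on the gene's strand, at chr10:36974294-36974543 (plus), chr1:92180342-92180591 (minus) and chrX:7947890-7948139 (minus). Capitals mark CCAAT and GGGCGG on either strand (ATTGG and CCGCCC), and no 2 matches overlapped in these windows.
Hdac2: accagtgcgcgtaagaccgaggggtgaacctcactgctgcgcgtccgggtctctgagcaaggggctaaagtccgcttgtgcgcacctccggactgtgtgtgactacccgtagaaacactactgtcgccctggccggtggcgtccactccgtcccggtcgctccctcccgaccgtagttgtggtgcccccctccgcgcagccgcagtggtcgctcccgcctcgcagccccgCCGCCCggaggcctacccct
Hdac4: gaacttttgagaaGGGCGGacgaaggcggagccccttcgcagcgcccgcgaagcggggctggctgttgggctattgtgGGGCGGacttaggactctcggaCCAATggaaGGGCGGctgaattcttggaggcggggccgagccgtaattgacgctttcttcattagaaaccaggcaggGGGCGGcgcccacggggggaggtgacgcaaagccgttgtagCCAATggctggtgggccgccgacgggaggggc
Hdac6: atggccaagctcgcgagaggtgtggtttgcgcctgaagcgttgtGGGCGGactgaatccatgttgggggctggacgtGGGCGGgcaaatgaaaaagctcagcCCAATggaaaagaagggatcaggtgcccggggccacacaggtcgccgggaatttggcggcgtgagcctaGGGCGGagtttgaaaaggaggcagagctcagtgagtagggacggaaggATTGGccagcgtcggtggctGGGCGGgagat

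The Hdac4 and Hdac6 windows each held 2 CCAAT and 4 GGGCGG matches, and the Hdac2 window 0 and 1. A CCAAT match was present in 33.8% and a GGGCGG match in 32.7% of 32851 mouse promoter windows of this length. The Hdac5 window held 2 and 1, the Hdac8 window 2 and 0, and 1 of 4 Hdac7 windows held 1 GGGCGG, while the 2 Hdac9 windows held neither. Hdac1, Hdac3 and Hdac10 had no entry in the table used here. CACGTG (6.02% of windows) and TATAAA (12.4%) were searched as well and neither lay in the 3 windows shown. A match is a description of the sequence and not a site.

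Hdac3, the catalytic subunit of the NCoR complex (probe on chromosome 18, minus strand, mm7), was the class I gene that fell in the most comparisons, 4 of 6. It read 0.46, 0.58, 0.58, 0.70 and 0.51 in adenoma and -0.43, -0.30, -0.00, -0.81 and 0.14 in metastases. Carcinoma ran from -0.23 through a median of 0.37 to 0.52, and disseminated cells from -0.62 through -0.32 to 0.00. Every metastases and every disseminated array lay below every adenoma array. Hdac3 fell by 0.85 in metastases (SE 0.16, 1.8-fold, adjusted p = 0.00089, limma) and by 0.91 in disseminated cells (SE 0.16, 1.88-fold, adjusted p = 0.00113) against adenoma.

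Against carcinoma Hdac3 fell by 0.60 in disseminated cells (adjusted p = 0.00646, limma) and by 0.54 in metastases (adjusted p = 0.0197). Metastases and disseminated cells differed by 0.06 (95% interval -0.26 to 0.39). The lowest carcinoma array was replicate 6, at -0.23. Within the 3 slides disseminated cells were lower than adenoma by -0.88, -1.15 and -0.71, and metastases lower than carcinoma by -0.30, -0.88 and -0.45. The call against carcinoma in metastases was lost without metastases replicate 1 (-0.50, adjusted p = 0.0523) or replicate 4 (-0.41, adjusted p = 0.0642). It was also lost without normalization between arrays (-0.48, adjusted p = 0.0518, limma) and with only the 2 groups in the model (adjusted p = 0.0519, limma). The same held in the equal-variance test without moderation (adjusted p = 0.0742).

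Hdac8, an X-linked class I enzyme that deacetylates cohesin, had 2 probes that moved in opposite directions between adenoma and metastases. The brightest probe is mapped by the array annotation over a span of 94904 bases (chrX:97635086-97729989, minus strand, mm7), that is, across an intron. It read -1.43, -0.68, -1.04, -1.48 and -1.09 in adenoma, where replicates 3 and 4 were not well above background, and -0.61, -0.04, -0.22, -0.86 and -0.32 in metastases. Carcinoma ran from -0.96 through a median of -0.38 to 0.04, and disseminated cells from -1.50 through -1.30 to -0.61.

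On this probe Hdac8 was high in carcinoma and metastases and low in adenoma and disseminated cells, with 1 array or more of overlap in each pair. Hdac8 rose by 0.73 in both carcinoma (SE 0.20, adjusted p = 0.0223, limma) and metastases (SE 0.21, adjusted p = 0.0119) against adenoma. It fell by 0.78 in disseminated cells against carcinoma (adjusted p = 0.00533) and was higher by 0.79 in metastases than in disseminated cells (adjusted p = 0.0125). All 4 of these comparisons run across the 2 sets of slides. Without normalization between arrays the rises over adenoma were 0.45 (adjusted p = 0.257) in carcinoma and 0.48 (adjusted p = 0.176) in metastases. The rise in carcinoma was also lost without adenoma replicate 1 (0.0535) or 4 (0.0513) or carcinoma replicate 5 (0.0508), these being adjusted p from limma. The call between metastases and disseminated cells was lost with only the 2 groups in the model (adjusted p = 0.0522, limma). It was also lost in the equal-variance test without moderation (adjusted p = 0.0883).

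The second Hdac8 probe (chrX:97832340-97832399, minus strand, mm7), well above background on every array, read 0.17, -0.02, 0.13, 1.29 and 0.81 in adenoma and -0.41, -0.41, -0.43, -0.40 and -0.16 in metastases. Carcinoma ran from -0.40 through 0.50 to 0.82, and disseminated cells from -0.58 through -0.28 to 0.44. All 5 metastases lay below all 5 adenoma arrays. This probe fell by 0.83 in metastases (SE 0.24, adjusted p = 0.0151, limma), by 0.68 in disseminated cells (adjusted p = 0.0482) against adenoma, and by 0.72 in metastases against carcinoma (adjusted p = 0.0325). Of these, the calls for disseminated cells and against carcinoma were each lost on leaving out any of several single arrays (adjusted p up to 0.146 and 0.0791), and the direction in disseminated cells turned within 1 slide (0.07). The direction of Hdac8 is therefore given per probe only.

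**Figure D3:**
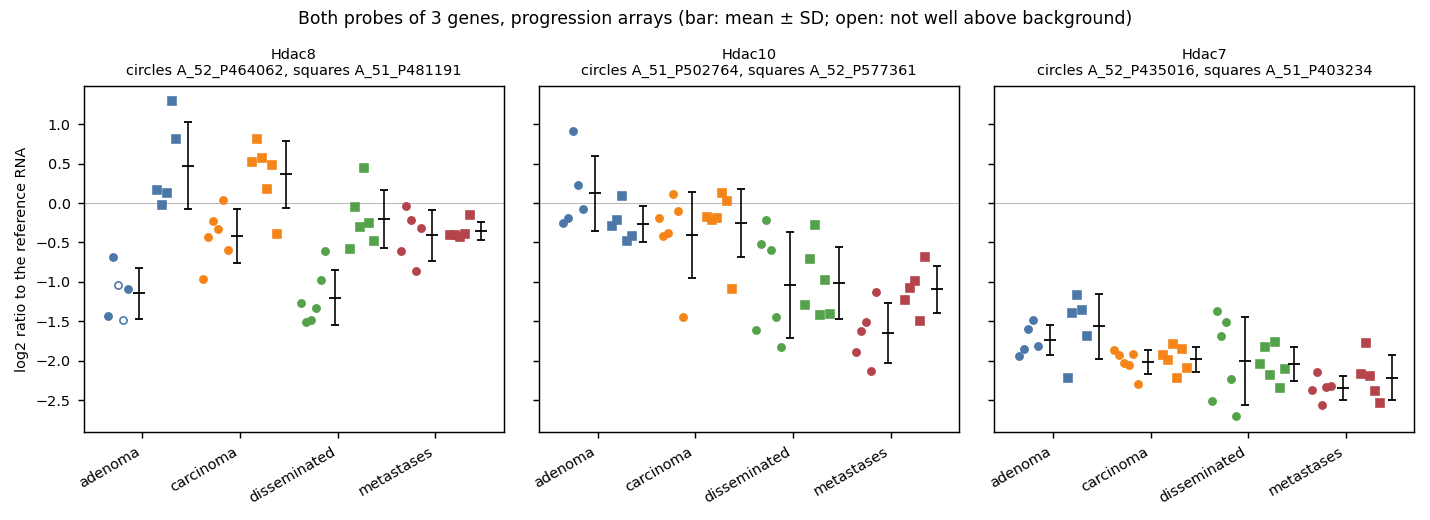
Log2 ratio to the reference of both probes (circles and squares) of Hdac8, Hdac10 and Hdac7 on each progression array, with group means and SD (bars) and open symbols where the sample channel was not well above background. Heights are to be read within a probe: from adenoma to metastases the Hdac8 circles are higher (-1.14 to -0.41) and its squares lower (0.47 to -0.36), while both probes of Hdac10 and of Hdac7 are lower.

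Among the class IIa genes, Hdac4 fell in carcinoma and in metastases, Hdac7 fell modestly in metastases and Hdac9 rose slightly in carcinoma. Hdac5 passed no test in the model with all arrays and without slide. Hdac4, a repressor of Mef2 and Runx2 targets (probe chr1:91840786-91840845, minus strand, mm7), read -1.45, -1.10, -1.12, -1.16 and -1.37 in adenoma and -2.11, -2.07, -2.47, -2.61 and -2.52 in metastases. Carcinoma ran from -2.66 through a median of -2.16 to -2.05. Both of these groups lay wholly below adenoma. Hdac4 fell by 1.01 in carcinoma (SE 0.20, 2.01-fold, adjusted p = 0.00394, limma) and by 1.12 in metastases (SE 0.21, 2.17-fold, adjusted p = 0.000785), and metastases differed from carcinoma by -0.11 (95% interval -0.53 to 0.32).

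The disseminated arrays split for Hdac4. Replicates 2, 3 and 4 read -0.94, -1.23 and -1.12, within or just above the adenoma values, and replicates 1, 5 and 6 read -1.97, -2.22 and -2.10, near carcinoma. In that order these arrays had median signals over background of 148, 189, 85.8, 372, 321 and 478, and a link was not tested. As a group they were higher than carcinoma by 0.65 (SE 0.19, adjusted p = 0.0189, limma) and than metastases by 0.76 (metastases minus disseminated -0.76, SE 0.20, adjusted p = 0.0188). With only the 2 groups in the model these became adjusted p of 0.0646 and 0.117 by limma, and the first was lost without carcinoma replicate 4 (0.57, adjusted p = 0.0506) and the second without disseminated replicate 3 (-0.69, adjusted p = 0.0507). The falls in carcinoma and metastases cross the slide sets and ranged from -1.10 to -0.93 and from -1.24 to -1.05 over the alternatives, all past the test.

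Hdac5, the class IIa paralog nearest to Hdac4 (probe chr11:102304793-102304852, minus strand, mm7), read -0.18, -0.11, 0.46, 0.36 and -0.33 in adenoma. The metastases read -0.44, 0.08, -0.49, -0.52 and 0.09, and carcinoma ran from -0.67 through 0.06 to 0.28. Disseminated cells were lowest, from -0.90 through -0.56 to 0.36, and overlapped every other group. The difference from adenoma, -0.46 ± 0.21 (SE), had an adjusted p of 0.138 by limma. Both groups share slides, and with the slide as a fixed block it was -0.55 (adjusted p = 0.0406, limma). Without the arrays that stand apart it was -0.61 (adjusted p = 0.0188, limma), and the difference from carcinoma -0.66 (adjusted p = 0.00967).

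Hdac7, a class IIa enzyme best known from endothelial cells and thymocytes, was below the reference in every group, where endothelial markers (12 genes) averaged -0.04 (adenoma), 0.71 (carcinoma), 1.64 (disseminated) and 0.84 (metastases). Its brightest probe (chr15:97793586-97793645, minus strand, mm7) read -1.93, -1.85, -1.60, -1.48 and -1.82 in adenoma and -2.38, -2.15, -2.56, -2.33 and -2.31 in metastases, without overlap. Carcinoma ran from -2.29 through -1.98 to -1.86 and disseminated cells, the widest group, from -2.70 through -1.96 to -1.37. It fell by 0.61 in metastases (SE 0.20, adjusted p = 0.0285, limma), and the second probe (chr15:97794237-97794296) by 0.65 (adjusted p = 0.00846).

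The second Hdac7 probe also fell in disseminated cells, by 0.48 (adjusted p = 0.0491, limma). That call was lost without any of 8 single arrays (adenoma 2, 3, 4 or 5, disseminated 1, 3, 5 or 6, adjusted p of 0.0591 to 0.142, limma). For metastases the brightest probe lost its call without adenoma 3 or 4 or metastases 1 or 3 (adjusted p of 0.0522 to 0.0712), with the deposited matrix (-0.42, adjusted p = 0.104), with the scanner's processed signals (-0.54, 0.0673) and without normalization between arrays (-0.54, 0.0523). The second probe lost it with the scanner's processed signals (-0.34, adjusted p = 0.198), with median centring (-0.34, 0.0671) and in the equal-variance test without moderation (adjusted p = 0.0743).

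Hdac9, which binds Mef2 and is known from muscle and T cells, had 4 probes, of which the brightest (chr12:32232465-32232524, minus strand, mm7) was well above background on all 22 arrays. Adenoma read 0.38, 0.11, -0.08, 0.37 and 0.33, and all 6 carcinoma arrays lay higher, from 0.53 through 0.62 to 0.82. Metastases read 0.30, 0.20, 0.50, 0.73 and 0.65, and disseminated cells ran from 0.27 through 0.55 to 0.78, both overlapping adenoma. Hdac9 rose by 0.42 in carcinoma (SE 0.12, adjusted p = 0.0257, limma). This call was lost without adenoma 2 or 3 or carcinoma 1 or 4 (adjusted p of 0.0514 to 0.083) and with the scanner's processed signals (adjusted p = 0.106). It was also lost with the deposited matrix (0.33, adjusted p = 0.0826, limma), with median centring (0.31, 0.11) and without normalization between arrays (0.35, 0.0961).

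A second Hdac9 probe (chr12:32214715-32214774) was not well above background on any adenoma array and was so on 3 of 5 metastases. Its ratio rose by 0.89 (adjusted p = 0.0364, limma). The mean signal of all 5 metastases was 1.52-fold above adenoma, with adenoma set no lower than its lowest signal well above background. The call was lost under 15 of 25 alternatives, among them the deposited matrix (adjusted p = 0.0527, limma) and no normalization between arrays (0.123). The highest metastases value of this probe, 1.51, was in replicate 4, an array that stands apart, without which the change was 0.61 (adjusted p = 0.117, limma). The other 2 probes of Hdac9 were well above background on 1 and 0 of 22 arrays and changed in no comparison.

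Both class IIb genes fell in metastases against adenoma and against carcinoma, and in disseminated cells against adenoma. Hdac6, the cytoplasmic tubulin deacetylase (probe chrX:6363458-6363517, minus strand, mm7), read -0.01, 0.21, 0.23, -0.05 and -0.03 in adenoma and -1.38, -1.16, -1.67, -1.81 and -1.02 in metastases. Carcinoma ran from -1.27 through a median of -0.34 to 0.03, and disseminated cells from -1.29 through -0.86 to -0.04. The 5 metastases lay wholly below adenoma and overlapped carcinoma only through carcinoma replicate 6, at -1.27.

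Hdac6 fell by 1.48 in metastases against adenoma (SE 0.23, 2.79-fold, adjusted p = 0.000146, limma), by 1.01 against carcinoma (SE 0.22, 2.01-fold, adjusted p = 0.00372), and by 0.87 in disseminated cells against adenoma (SE 0.22, 1.83-fold, adjusted p = 0.0106). Within slides metastases differed from carcinoma by -1.12, -1.44 and -0.34 and disseminated cells from adenoma by -0.98, -1.13 and -0.59. In the order adenoma, carcinoma, disseminated, metastases no neighbours differed (adjusted p of 0.173, 0.181 and 0.0754 by limma). Without the arrays that stand apart disseminated cells were also below carcinoma, by -0.73 (adjusted p = 0.00148, limma).

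Hdac10, a polyamine deacetylase (brightest probe chr15:89205745-89205804, minus strand, mm7), showed the largest fall of the family on this probe, but not on its second probe. It read -0.25, -0.20, 0.91, 0.23 and -0.08 in adenoma and -1.89, -1.62, -1.50, -2.12 and -1.12 in metastases. Carcinoma ran from -1.45 through a median of -0.29 to 0.11, and disseminated cells from -1.83 through -1.02 to -0.21. All 5 metastases lay below all adenoma arrays, and again only carcinoma replicate 6, at -1.45, reached into the metastases.

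Hdac10 fell by 1.77 in metastases against adenoma (SE 0.33, 3.42-fold, adjusted p = 0.000603, limma), by 1.25 against carcinoma (SE 0.31, 2.37-fold, adjusted p = 0.00866) and by 1.16 in disseminated cells against adenoma (SE 0.31, 2.23-fold, adjusted p = 0.0153). The last call was lost without adenoma replicate 3, the highest array (-0.96, adjusted p = 0.0508), and so was that of the second probe (-0.66, adjusted p = 0.0656, limma). This second probe (chr15:89205963-89206022) moved the same way, by -0.83 (adjusted p = 0.011, limma), -0.84 (0.0106) and -0.75 (0.0227) in the same 3 comparisons, and also fell in disseminated cells against carcinoma, by 0.76 (adjusted p = 0.012). Within slides the brightest probe differed by -1.16, -1.72 and -0.84 in metastases against carcinoma and by -1.71, -0.69 and -1.47 in disseminated cells against adenoma.

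The macrophage marker level of the metastases was 3.89, 1.43, 4.68, 5.35 and 1.90 in replicates 1 to 5, in the order of the Hdac6 and Hdac10 values above. Disseminated cells, with a macrophage mean of 4.48 where metastases had 3.45, had a mean Hdac6 of -0.80 where metastases had -1.41, and a mean Hdac10 of -1.04 where metastases had -1.65. Carcinoma replicate 6, with a macrophage level of 4.11, had the lowest Hdac6, Hdac10 and Hdac3 values of its group. Without the arrays that stand apart, Hdac6 and Hdac10 in metastases were at -1.38 (adjusted p = 1.31e-05, limma) and -1.66 (adjusted p = 0.000454) against adenoma. Metastases replicates 1 and 3, with macrophage levels of 3.89 and 4.68, stayed in that setting. The part of macrophages in these values was not tested.

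**Figure D4:**
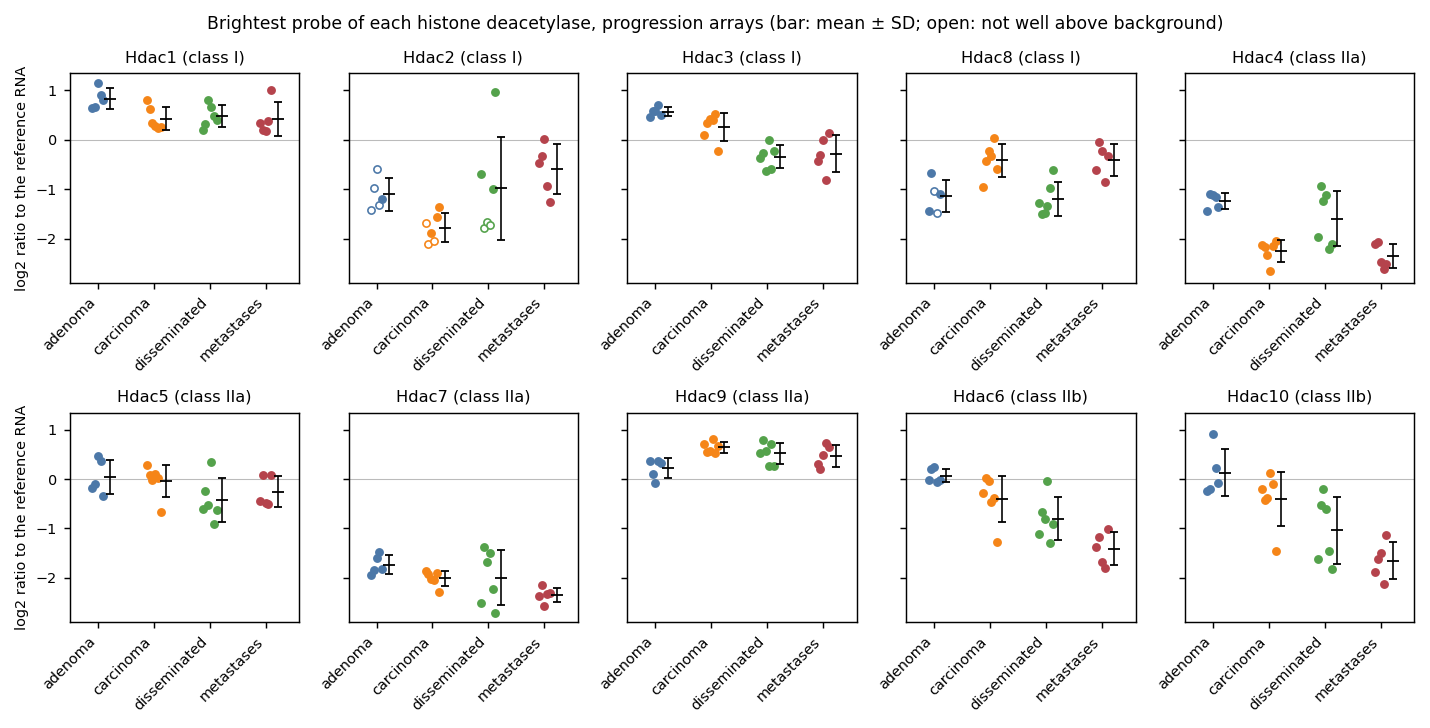
Log2 ratio to the reference of the brightest probe of each gene on each of the 22 progression arrays (points), with the mean and SD of each group (bars) and open points where the sample channel was not well above background. Hdac3, Hdac4, Hdac6, Hdac7 and Hdac10 show all 5 metastases below all 5 adenoma arrays, and Hdac2 shows all 5 metastases above the 6 carcinoma arrays.

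Partners of the deacetylases were counted from gene lists whose members were all measured. In metastases against adenoma the CoREST complex, the Hdac1 and Hdac2 scaffold built with Kdm1a, had 0 of 8 genes up and 5 down with a median of -1.10, beside a median of 0.02 and 13.1% up and 14.4% down over all probes. Its scaffold Rcor1 fell by 3.45 (adjusted p = 7.26e-06, limma), the partner Hmg20b by 2.65 (2.99e-05), Rcor3 by 1.67 (0.000388) and Phf21a by 1.10 (0.0027). Against carcinoma 4 of the 8 CoREST genes fell (12.1% of all probes did), Hmg20b by 1.58 (adjusted p = 0.00238), Rcor1 by 1.30 (0.0149), Zmym3 by 1.26 (0.00534) and Phf21a by 0.95 (0.00768), with a median of -0.69 for the list beside -0.03 for all probes.

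The NuRD complex moved in both directions, with 2 of 9 genes up and 4 down in metastases against adenoma and a list median of -0.17. Over all probes 13.1% rose and 14.4% fell in this comparison. The methyl-CpG-binding proteins Mbd3 and Mbd2 rose by 1.78 (adjusted p = 1.43e-05, limma) and 1.16 (0.0037), while the remodeler Chd4 fell by 1.61 (0.00147) and Mta1 by 1.56 (1.32e-05). In the Sin3 complex 4 of 15 rose and 5 fell, with a list median of 0.19. Among them were the scaffold Sin3b, up by 1.41 (adjusted p = 4.67e-05, limma), and Suds3, down by 0.99 (0.00136).

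Of 20 class IIa partners (Mef2 factors, 14-3-3 proteins and the kinases that set their export), 5 rose and 6 fell in metastases against adenoma. The list median was -0.10, and over all probes 13.1% rose and 14.4% fell. The 14-3-3 protein Sfn rose by 2.10 (adjusted p = 0.00379, limma) and the kinase Camk1 by 1.75 (0.00324), while the kinase Prkd2 fell by 1.62 (0.000968) and Mef2d by 1.35 (0.00932). In disseminated cells against adenoma 4 of the 20 rose and 0 fell, beside 7.58% up and 10.7% down over all probes, with a list median of 0.04. Those that rose were Mef2c by 1.49 (0.0368), Mef2a by 1.41 (0.0172), Sik3 by 1.21 (0.00555) and Prkd3 by 0.83 (0.0169). Mef2c is also expressed by B cells and myeloid cells.

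Other enzymes of lysine acetylation were counted in the same way. Of 8 other deacetylases (Hdac11 and the sirtuins) 0 rose and 3 fell in metastases against adenoma, the mitochondrial Sirt5 by 1.65 (adjusted p = 0.00154, limma), Sirt3 by 1.46 (0.00123) and Sirt4 by 0.89 (0.0333). The median of that list was -0.48. Of 12 histone acetyltransferases, which oppose the deacetylases, 4 rose and 6 fell, with a list median of -0.74. Over all probes 13.1% rose and 14.4% fell in metastases against adenoma, with a median of 0.02. Hat1 rose by 1.59 (adjusted p = 0.00012) and Crebbp by 1.46 (0.000707), while the Crebbp paralog Ep300 fell by 1.69 (0.000828) and Kat8 by 1.33 (0.000261). In metastases against carcinoma, where 8.97% of all probes rose and 12.1% fell, 5 other deacetylases fell and 0 rose (median -0.68), and 3 acetyltransferases rose and 2 fell (median -0.05).

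For the 4 genes whose brightest probe changed 2-fold, the genes with the most similar pattern over the 22 progression arrays were taken from 13809 genes by Pearson's r, given as a description since the arrays of a group share their condition. Hdac6 ran closest to AU040320 (r = 0.971), Zfp637 (0.962) and Rpl41 (0.956). Hdac10 ran closest to 2610015P09Rik (0.957), Top3b (0.957) and Tab1 (0.955). For Hdac4 these were Zc3h11a (0.945), the histone demethylase Kdm2a (0.915) and Czib (0.899), and for Hdac2 Morf4l2 (0.909), Yme1l1 (0.905) and Atp5pb (0.904). The genes compared were well above background on all 22 arrays, but the Hdac2 probe only on 12. Its r therefore rests in part on values near background.

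After chemotherapy no member passed the test in any comparison. In residual against untreated tumors 0 of 17 probes passed in limma, where 0.17% of all probes did, and in relapsed tumors 0 passed against untreated (0.00486% of all probes) and 0 against residual tumors (0.226%). At an unadjusted p below 0.05 limma gave 1, 1 and 0 member probes, where 8.86%, 7.63% and 7.36% of all probes passed. An equal-variance test without moderation gave 1, 0 and 0, where 8.09%, 7.41% and 6.66% of all probes passed. The lowest adjusted p were 0.538, 0.612 and 0.751 by limma. The median change of the 10 brightest probes was 0.00, -0.00 and -0.02, beside -0.01, 0.01 and 0.01 for all probes.

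The widest difference was in Hdac2, which was well above background on all untreated, 4 of 6 residual and all relapsed arrays. Untreated tumors ran from -0.87 through a median of -0.07 to 0.40, residual tumors from -1.03 through -0.68 to 0.29, and the relapsed tumors read -0.51, -0.32, -0.23 and 0.04. The 3 groups overlapped, and residual minus untreated was -0.39 (95% interval -0.89 to 0.11).

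Hdac8 by its brightest probe ran from -0.97 through -0.16 to 0.19 in untreated and from -0.76 through -0.56 to -0.11 in residual tumors, and read -0.84, -0.76, -0.56 and -0.03 in relapsed tumors. The groups overlapped, with changes of -0.27 (95% interval -0.68 to 0.13) in residual and -0.30 (-0.76 to 0.15) in relapsed against untreated tumors.

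The class IIb genes that fell in metastases did not pass the test here. Hdac6 was at -0.27 ± 0.21 (SD, n = 6) in untreated, -0.34 ± 0.20 (n = 6) in residual and -0.43 ± 0.10 (n = 4) in relapsed tumors, where the arrays read -0.50, -0.49, -0.29 and -0.43. Hdac10 was at -0.69 ± 0.39, -0.64 ± 0.22 and -0.68 ± 0.40 in the same order, and its relapsed arrays read -0.30, -0.49, -1.22 and -0.71. All groups overlapped, and the 95% intervals of the changes against untreated tumors ran from -0.29 to 0.16 and from -0.41 to 0.10 for Hdac6 and from -0.33 to 0.43 and from -0.42 to 0.44 for Hdac10.

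Of the class I genes, Hdac1 was at -1.24 ± 0.25, -1.25 ± 0.18 and -1.27 ± 0.18 (SD, n = 6, 6 and 4) in untreated, residual and relapsed tumors, and Hdac3 at 0.20 ± 0.12, 0.06 ± 0.08 and 0.18 ± 0.13. Among the class IIa genes Hdac4 was at -0.36 ± 0.18, -0.35 ± 0.18 and -0.27 ± 0.12, Hdac5 at 0.26 ± 0.15, 0.44 ± 0.27 and 0.27 ± 0.19, and Hdac7 at -1.54 ± 0.21, -1.37 ± 0.23 and -1.42 ± 0.16. The second Hdac7 probe was the member nearest to the threshold, at 0.23 in residual against untreated tumors (unadjusted p = 0.0392, adjusted p = 0.538, limma). Hdac9 was well above background on 1 of 16 arrays, so no level is given for it.

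Mammary epithelial markers averaged 3.69, 3.79 and 3.78 in untreated, residual and relapsed tumors and macrophage markers 0.82, 0.31 and 0.10, with array ranges of -0.12 to 1.99, -0.29 to 1.27 and -0.50 to 0.81. None of the 6 lists of partners and other acetylation enzymes described above had a gene past the test in the chemotherapy comparisons.

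**Figure D5:**
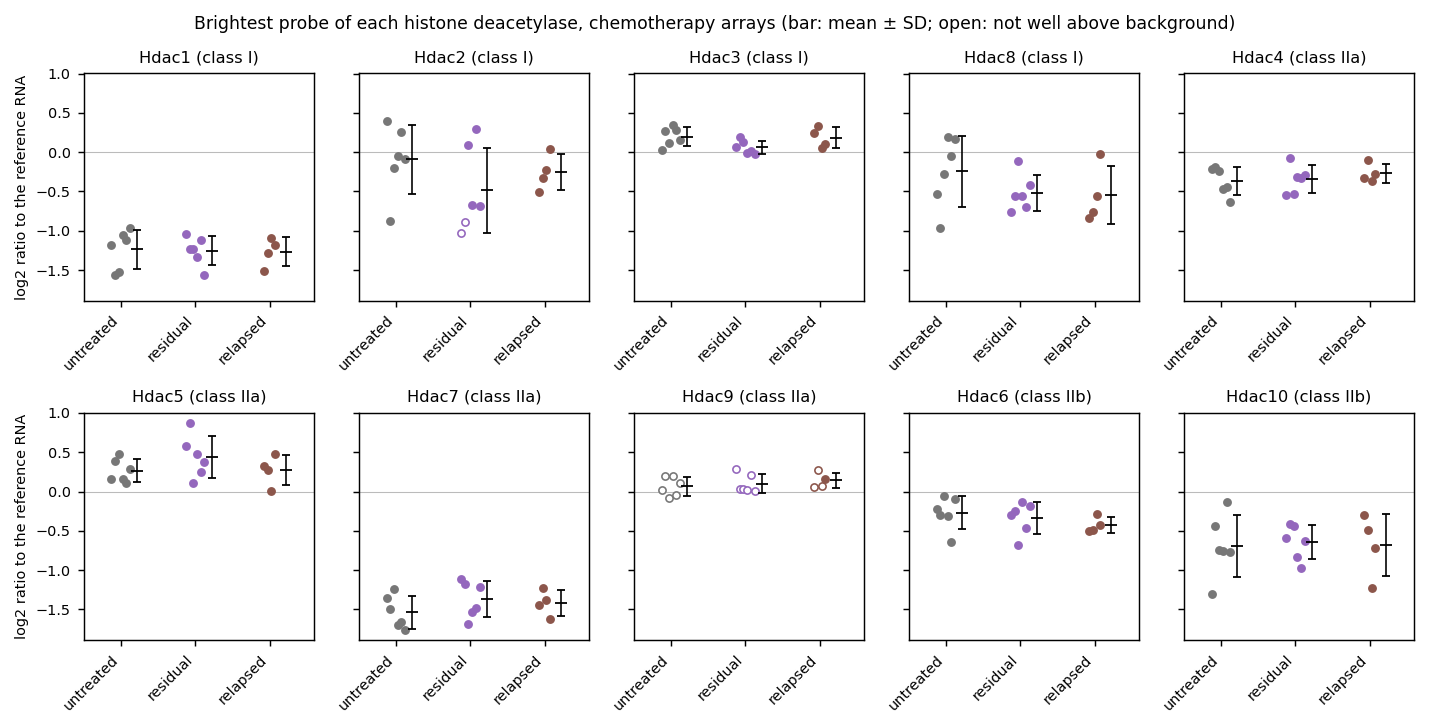
Log2 ratio to the reference of the brightest probe of each gene on each of the 16 chemotherapy arrays (points), with the mean and SD of each group (bars) and open points where the sample channel was not well above background. The 3 groups overlap for every gene, and 15 of 16 Hdac9 points are open.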

How the data were processed

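RNA of sorted GFP-positive cells was amplified (2 rounds in the progression experiment), labeled with Cy5 and hybridized against Cy3 reference RNA, without dye swaps. The deposited scanner files (Agilent Feature Extraction 10.7, per the submitters' processing notes) hold intensity values per spot, with probe positions on mm7, and the deposited matrix holds the authors' log2 ratios, for which their methods name normexp, loess and quantile steps in limma. The matrix was used as an alternative. Its columns correlated at 0.966 to 0.998 with the same array's ratios computed here, which settles scale and direction, and had medians of 0.005 to 0.053. The authors' normexp offset is not given in the sources used here.

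From the mean and background intensity of each channel, log2 ratios were recomputed in limma 3.58.1 (R 4.3.3, statmod 1.5.0) with normexp (offset 50), loess within arrays with control and outlier spots at weight 0, and a quantile step over the arrays of each experiment. Spots of 1 probe were averaged. All groups of an experiment entered 1 model, and p-values were adjusted over all 41174 probes, 23082 of them named through RefSeq accessions and 18092 by the files' own names. The number of arrays limits the precision. The share of spots well above background was 48.4 to 78.9% on progression and 50.5 to 64.3% on chemotherapy arrays. The relapsed group carries the label of resistant tumors and was matched to the study's relapsed group by elimination.

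Every probe of the 10 genes is accounted for. Of a pathway list at most 4 genes are named, those past the test with the largest change, and for members changed 2-fold the 3 genes most correlated with them. Members, marker lists and gene lists were chosen with earlier results of these data known. Alternatives varied the offset, signals, within- and between-array normalization, matrix, slide and replicate blocks, dim probes, model, thresholds and single arrays. The equal-variance test without moderation is the kind of test named in a legend of the study, whose methods name limma. The model was tested on simulated data. The result of 1 list of partner genes is not reported here.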

Additional observations from a re-analysis of the deposited data

Results flagged for a closer look

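In 70 groups of 4 to 6 arrays, the highest or lowest array of the brightest probe was tested for standing off from the rest by Dixon's gap ratio. Chance flags about 1 group in 20, and 3 were found. Hdac1 in metastases replicate 5 was 1.01 where the other 4 arrays lay between 0.19 and 0.38 (gap over range 0.76). Hdac5 in carcinoma replicate 6 was -0.67 where the other arrays lay between -0.02 and 0.28 (0.682). Hdac10 in carcinoma replicate 6 was -1.45 where the others lay between -0.42 and 0.11 (0.658). Carcinoma replicate 6 is 1 of the 4 arrays that stand apart over all probes, and its macrophage marker level was 4.11 against -0.20 to 0.84 in the other carcinoma arrays.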

How the results depend on the processing

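The falls of Hdac6, Hdac10 (brightest probe) and Hdac4 in metastases against adenoma passed under all 26 alternatives (-1.64 to -1.38, -1.91 to -1.58 and -1.24 to -1.05), and those of Hdac6 and Hdac10 against carcinoma under all 28 (-1.18 to -0.91 and -1.45 to -1.13). Aquantile leaves the ratios unchanged, so among these alternatives it only repeats the setting without normalization between arrays. Counts of member probes past the test are given with the share of all probes called in the same setting. In carcinoma against adenoma the count was 3 (11.5%), and 1 with no normalization between arrays (5.74%, the same values as with Aquantile), 1 at adjusted p below 0.01 (3.73%) and 1 at 2-fold (3.36%). In disseminated cells against adenoma it was 6 of 17 (18.2%), and 3 of 10 with 1 probe per gene (20.6%), 2 with the equal-variance test without moderation (7.91%), 1 at 0.01 (7.26%) and 1 at 2-fold (9.21%). In metastases against adenoma it was 10 of 17 (27.5%), and 6 of 10 with 1 probe per gene (28.6%), 5 at 0.01 (15.3%) and 3 at 2-fold (13.9%). In disseminated cells against carcinoma it was 4 (24.7%), and 2 with the test without moderation (19.6%), 2 at 0.01 (12.7%), 0 at 2-fold (10.5%) and 7 without the 4 arrays that stand apart (32.5%). In metastases against carcinoma it was 6 (21.1%), and 2 at 0.01 (9.68%) and 3 at 2-fold (9.81%). In metastases against disseminated cells it was 2 (12.9%), and 0 with only the 2 groups in the model (3.71%), 0 with the test without moderation (0.891%), 0 at 0.01 (5.15%) and 0 at 2-fold (6.94%). Leaving out 1 array gave 2 to 3, 3 to 8, 8 to 11, 3 to 7, 3 to 6 and 1 to 3 in these comparisons. For these ranges the shares of all probes are not given, so they are not read as a result about the members. The chemotherapy counts were 0 under every alternative. Of the changes past the test, 1 turned its sign, that of the second Hdac8 probe in disseminated cells against adenoma within slide 11, at 0.0662. Changes that did not pass also turned within single slides, such as Hdac4 (0.09) in disseminated cells against adenoma on slide 11 and Hdac5 (0.41) in metastases against carcinoma on slide 8. The causes of these shifts were not tested.

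Same-numbered samples did not as a rule deviate together (31 progression pairs, r from -0.392 to 0.289, and 14 chemotherapy pairs, -0.404 to 0.433). The median r was -0.015 and 0.056, beside -0.007 and 0.009 for other numbers. Of 22 progression samples 2, and of 16 chemotherapy samples 6, matched best with their own number. This check cannot exclude pairing by replicate number, and the main model used none. With the replicate block the count in metastases against disseminated cells was 4 (15.4%), adding Hdac6 (-0.71, adjusted p = 0.0396, limma) and Hdac10 (-0.80, adjusted p = 0.0402), and 4 in disseminated cells against adenoma (13.7%). The slide as a fixed block could be estimated in the comparisons that share slides. The counts were 6 for disseminated cells against adenoma, with Hdac5 gained (-0.55, adjusted p = 0.0406, limma) and the second Hdac8 probe lost (-0.71, adjusted p = 0.051), 6 for metastases against carcinoma, and 0 in each chemotherapy comparison. The shares of all probes with the slide block are not given. Of the probes called in disseminated cells against carcinoma 38.3% were higher, and 50.4% without normalization between arrays. For disseminated cells against adenoma these were 41.6% and 53.8%, and for carcinoma against adenoma 54.5% and 45.1%. Dim probes limit Hdac2 and 3 of the 4 Hdac9 probes.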
